A study of Mus musculus with 12 samples.

Results

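Cytochrome P450 enzymes of families 1 to 4 were measured by their mRNAs in liver and lung of mice fed diets with or without added selenium. Members were taken by the gene symbol of the array annotation, which had to start with Cyp1, Cyp2, Cyp3 or Cyp4 followed by a letter, on a probe set assigned to a single gene. Cyp2b10, Cyp2b9 and Cyp2f2 were left out by name, and a member needed a value on at least 2 arrays of 1 group. Of 49 such symbols on the array, 43 genes met this rule, among 12163 genes that met the same requirement in the whole data set. Cyp2b13, Cyp4f18 and Cyp4f39 had too few values. Another 4 probe sets were shared by several genes (Cyp2a5 with Cyp2a4, Cyp3a41b with Cyp3a41a, Cyp4a31 with Cyp4a10, and Cyp4f37 with Cyp4f16) and did not count as members.

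The 12 arrays came from male wild-type FVB/N mice that were put at 3 weeks of age on a selenium-deficient torula yeast diet and kept on it for 6 weeks. The 0.1 Se groups received 0.1 ppm selenium as sodium selenite in that diet, and the 0 Se groups received none. Liver RNA and lung RNA were each hybridized on 3 arrays per diet, giving the groups 0.1 Se liver, 0 Se liver, 0.1 Se lung and 0 Se lung. All samples were whole organs, and all mice ate the same deficient base diet. A value is the log2 of a MAS5 signal, so a difference of 1 stands for a doubling, and a gene is called listed on an array that has a value for it. The table leaves a cell blank where MAS5 called the probe set absent or where its signal was below 100, without saying which, so no fold change is given for a gene without values in 1 of the tissues. From 17235 to 17923 probe sets were listed on the liver arrays and from 22197 to 22718 on the lung arrays. Of 12 hepatocyte markers and 12 ciliated cell markers looked for, 11 each had a single-gene probe set with a value on any array, and only these are counted. Of the 11 hepatocyte markers, 11 were listed in liver and 0 on at least 5 of the 6 lung arrays. All 11 ciliated cell markers were listed in lung and none in liver.

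P450 enzymes of these families are heme proteins of the endoplasmic reticulum that insert an oxygen atom into drugs, pollutants, steroids and fatty acids. Hepatocytes are the main site of this chemistry. Family 1 is known as the set of targets of the aryl hydrocarbon receptor, families 2 and 3 hold most of the drug- and steroid-oxidizing enzymes, and many family 4 enzymes hydroxylate fatty acids. In lung, the non-ciliated club cells of the airway are known for a P450 set of their own, which activates several lung toxicants.

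Sequence upstream of the members is shown first, to set the genes listed in liver alone beside those listed in lung alone. RefSeq promoter windows of build GRCm38.p6, reaching from 250 bases before to 50 bases after a transcription start, were found for 33 of the 43 members (38 windows). The windows below belong to Cyp1a2, listed in liver alone, its chromosome 9 neighbour Cyp1a1, Cyp2e1, with the largest difference between liver and lung, Cyp2s1, listed in lung alone, and Cyp2j9. Capitals mark matches to the TATA box, spelled TATAAA, to the motif CCAAT, to the GC box, spelled GGGCGG, and to GCGTG, the core of sites bound by the aryl hydrocarbon receptor. Each motif was searched on both strands and counted by itself where matches overlapped.
Cyp1a2: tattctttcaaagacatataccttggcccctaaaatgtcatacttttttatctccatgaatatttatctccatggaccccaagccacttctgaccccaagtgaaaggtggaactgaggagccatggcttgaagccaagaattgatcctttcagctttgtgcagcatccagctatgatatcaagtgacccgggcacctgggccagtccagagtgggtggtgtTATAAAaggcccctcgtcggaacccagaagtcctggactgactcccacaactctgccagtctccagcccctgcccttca
Cyp1a1: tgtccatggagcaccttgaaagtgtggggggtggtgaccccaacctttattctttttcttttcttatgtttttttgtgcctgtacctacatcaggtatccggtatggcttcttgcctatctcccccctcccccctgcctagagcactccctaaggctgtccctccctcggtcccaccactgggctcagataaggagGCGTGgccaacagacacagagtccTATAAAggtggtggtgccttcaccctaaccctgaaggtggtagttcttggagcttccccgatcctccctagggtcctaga
Cyp2e1: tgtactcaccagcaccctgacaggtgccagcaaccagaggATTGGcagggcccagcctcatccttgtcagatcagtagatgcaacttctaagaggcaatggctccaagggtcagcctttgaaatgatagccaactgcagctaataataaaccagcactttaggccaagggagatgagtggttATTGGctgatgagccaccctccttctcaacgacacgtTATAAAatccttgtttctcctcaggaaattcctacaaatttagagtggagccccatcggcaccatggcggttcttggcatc
Cyp2s1: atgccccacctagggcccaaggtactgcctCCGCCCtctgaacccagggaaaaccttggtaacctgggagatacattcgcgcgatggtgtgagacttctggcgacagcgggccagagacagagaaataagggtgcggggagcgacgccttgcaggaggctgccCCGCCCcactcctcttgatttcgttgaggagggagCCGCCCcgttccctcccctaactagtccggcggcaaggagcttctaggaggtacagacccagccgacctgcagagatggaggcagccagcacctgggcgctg
Cyp2j9: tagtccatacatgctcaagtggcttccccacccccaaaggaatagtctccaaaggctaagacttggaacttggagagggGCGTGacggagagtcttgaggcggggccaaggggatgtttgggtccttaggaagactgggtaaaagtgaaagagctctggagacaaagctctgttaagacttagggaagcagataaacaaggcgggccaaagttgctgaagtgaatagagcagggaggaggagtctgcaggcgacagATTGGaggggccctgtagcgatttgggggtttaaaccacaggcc
They lie at chr9:57683606-57683905 (minus strand), chr9:57697363-57697662 (plus), chr7:140763569-140763868 (plus), chr7:25816476-25816775 (minus) and chr4:96591436-96591735 (minus), in the order printed. The windows of Cyp1a2, Cyp1a1 and Cyp2e1 held a TATA box, and that of Cyp1a1 also held the GCGTG core close upstream of it. The window of Cyp2s1 held no TATA box but the GC box on its complementary strand, and it had 17 CpG dinucleotides, against 3 in the window of Cyp1a2.

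Of the 29 genes listed in liver alone, 20 had windows, 25 in number. TATAAA was present in 12 of these 25 windows (48.0%) and in 13.6% of all 32851 promoter windows of the table. GGGCGG was present in 2 of those 25 windows (8.0%) and in 35.7% of all windows. The 3 windows of genes listed in lung alone all held GGGCGG and none held TATAAA. Of 6 windows of genes listed in both tissues, 1 held TATAAA, that of Cyp2e1, and 4 held GGGCGG. Of 4 windows of genes listed on only some arrays of 1 tissue, 4 held TATAAA and 0 held GGGCGG. The median number of CpG dinucleotides was 2 in the liver-alone windows, 16 in the lung-alone windows and 7 over all windows. CCAAT was found in 17 of the 25 liver-alone windows and in 37.4% of all, and GCGTG in 3 of the 25 and in 32.4% of all. Many of these genes are tandem copies of one another, so their windows are not independent, and a match of letters is a description of the sequence and not a binding site.

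Most of the members had values in liver and none in lung. This held for 29 of the 43 genes (67.4%), with values on at least 5 of 6 liver arrays and on 0 of 6 lung arrays, whereas 3.69% of all genes showed this pattern. The reverse pattern was found for 3 members, Cyp1b1, Cyp2s1 and Cyp4f16 (6.98%), and for 13.3% of all genes. A further 7 members were listed in both tissues, and 4 were listed on some arrays of 1 tissue. In whole organs, fewer cells of a type and less RNA per cell cannot be told apart.

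The largest block was the Cyp2c subfamily, which oxidizes drugs, retinoids and arachidonic acid. Of its 11 members, 10 were listed in liver alone (Cyp2c23, Cyp2c29, Cyp2c37, Cyp2c38, Cyp2c39, Cyp2c50, Cyp2c54, Cyp2c55, Cyp2c68 and Cyp2c70). Cyp2c23, an arachidonic acid epoxygenase also called Cyp2c44, had log2 signals from 13.93 over a median of 14.04 to 14.26 in liver. Cyp2c70, which makes the muricholic acids of mouse bile, was the steadiest member in liver, with an SD of 0.06 over the 6 arrays. Cyp2c65 was listed on only 2 arrays, both of 0.1 Se liver, at 7.72 and 7.06.

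The Cyp2d subfamily had 5 of 7 members in liver alone (Cyp2d9, Cyp2d10, Cyp2d12, Cyp2d13 and Cyp2d26). Cyp2d9, a testosterone hydroxylase known for higher levels in male than in female mouse liver, ranged from 14.86 over a median of 15.02 to 15.08. Cyp2d13 is annotated by RefSeq as a transcribed pseudogene, and it was listed on all 6 liver arrays at 13.02 to 13.35. Cyp2d40 was listed on 4 liver arrays, at 7.31 and 7.48 in 0.1 Se liver and at 7.15 and 6.91 in 0 Se liver.

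All 3 members of Cyp4a, the fatty acid omega-hydroxylases that respond to the receptor PPAR alpha, were listed in liver alone (Cyp4a12a, Cyp4a14 and Cyp4a31). Cyp4a12a, which is male-predominant in mice, ranged from 13.36 over a median of 13.60 to 13.75. Cyp4a14 varied most among the members with 6 liver values, with an SD of 0.43 and a range from 9.89 to 11.02. In the Cyp3a subfamily, 3 of 4 members were in liver alone (Cyp3a11, Cyp3a13 and Cyp3a25). Cyp3a11, the main drug-oxidizing Cyp3a enzyme of mouse liver, had log2 signals from 15.68 over a median of 15.93 to 16.06. Cyp3a44, which is female-predominant in mouse liver, was listed on 3 of the 6 liver arrays of these males, at 7.59 in 0.1 Se liver and at 7.21 and 8.34 in 0 Se liver.

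Several smaller subfamilies added 1 gene each to the liver-alone group. Cyp1a2, which oxidizes caffeine and aromatic amines, had log2 signals from 14.31 over a median of 14.52 to 14.64. Cyp2a12, a steroid hydroxylase, ranged from 14.15 over a median of 14.36 to 14.48. Cyp2j5, an arachidonic acid epoxygenase, ranged from 14.20 over a median of 14.34 to 14.51. These 3 genes thus had values on all 6 liver arrays within a range of less than 1 log2 unit. Cyp2r1, a vitamin D 25-hydroxylase, ranged from 9.94 over a median of 10.18 to 10.27. Cyp2u1, a fatty acid hydroxylase, ranged from 8.88 over a median of 9.26 to 9.68, and Cyp2g1, best known from olfactory mucosa, from 8.77 over 9.08 to 9.37. The Cyp4f subfamily was split: Cyp4f13 and the leukotriene hydroxylase Cyp4f14 were in liver alone, Cyp4f16 was in lung alone, and Cyp4f15 was in both.

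The neighbouring genes Cyp1a2 and Cyp1a1 did not share a pattern. Cyp1a1, the classical inducible target of the aryl hydrocarbon receptor, had no value on any liver array. It was listed on 2 lung arrays, both 0.1 Se, at 6.99 and 7.32 on 0.1 Se lung replicates 2 and 3, which are called 0.1 Se lung 2 and 0.1 Se lung 3 below. These values are too few for a test and lie near the lowest listed value of the table, 6.64.

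For the 7 members listed in both tissues, liver was compared with lung over the 12 arrays. In this comparison, 6 of the 7 were higher in liver and 1 was lower (limma, Benjamini-Hochberg adjusted p under 0.05). Over all 8289 genes tested, 36.2% were higher and 47% lower in liver, with a median difference of -0.15, against a median of 2.88 over the 7 members. For each of the 7, the call by adjusted p and its direction held under all alternatives of processing that gave a value. A further rule that also asked for at least a 2-fold difference left out Cyp2j9 (0.92, or 1.89-fold). Only genes with values in both tissues could be tested.

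Cyp2e1, the ethanol-inducible P450, had log2 signals from 15.55 over a median of 15.83 to 15.96 in liver, against 7.38, 8.11 and 9.77 in lung. The groups were far apart, and the lung arrays spread more widely (SD 0.84) than the liver arrays (SD 0.15, n = 6 each). The difference was 7.51 ± 0.24 (SE), a 182-fold higher signal in liver (limma adjusted p = 1.97e-13). Its liver signals lay near the highest value of the table, 16.4, and whether the probe set was saturated there was not tested. Cyp4v3, a fatty acid hydroxylase, had 14.13, 14.30 and 14.53 (lowest, median, highest) in liver, against 10.53, 10.61 and 10.69 in lung, and differed by 3.72 ± 0.07, or 13.2-fold (limma adjusted p = 8.7e-16). A second probe set of Cyp4v3 gave 3.80 ± 0.10.

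Cyp4f15, another fatty acid hydroxylase, had 11.38, 11.69 and 12.01 in liver, against 7.35, 7.80 and 8.55 in lung. No lung array reached the lowest liver value, and the difference was 3.78 ± 0.16 (SE), or 13.7-fold. Cyp2j6, a fatty acid epoxygenase, had 9.96, 10.20 and 10.41 in liver, against 7.02, 7.22 and 7.69 in lung. It differed by 2.88 ± 0.12, or 7.37-fold, and its second probe set gave 2.46 ± 0.10. Cyp2d22, another Cyp2d enzyme, had 12.44, 12.81 and 12.88 in liver, against 10.37, 10.51 and 10.54 in lung. Its probe sets gave the same direction and different sizes, 2.25 ± 0.08 for the one used and 3.66 ± 0.08 for the other.

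Cyp2j9 had the smallest difference of the 7. Its log2 signals were 7.81, 8.31 and 8.83 in liver, against 6.92, 7.43 and 7.74 in lung. The tissues did not overlap, and liver was higher by 0.92 ± 0.15 (SE), or 1.89-fold (limma adjusted p = 3.02e-05). The lung signals of Cyp2j9 and Cyp2j6 lay near the lowest listed value of the table, 6.64. The effect of this floor on their differences was not tested.

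Cyp4b1, known for the activation of the lung toxicant 4-ipomeanol, was the member that went the other way. It had log2 signals from 9.61 over a median of 9.78 to 10.28 in liver, against 13.75, 13.96 and 14.22 in lung. Every lung array lay above every liver array, and the signal was 17.3-fold lower in liver (difference -4.11 ± 0.11, SE; limma adjusted p = 1.65e-14).

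**Figure D1:**
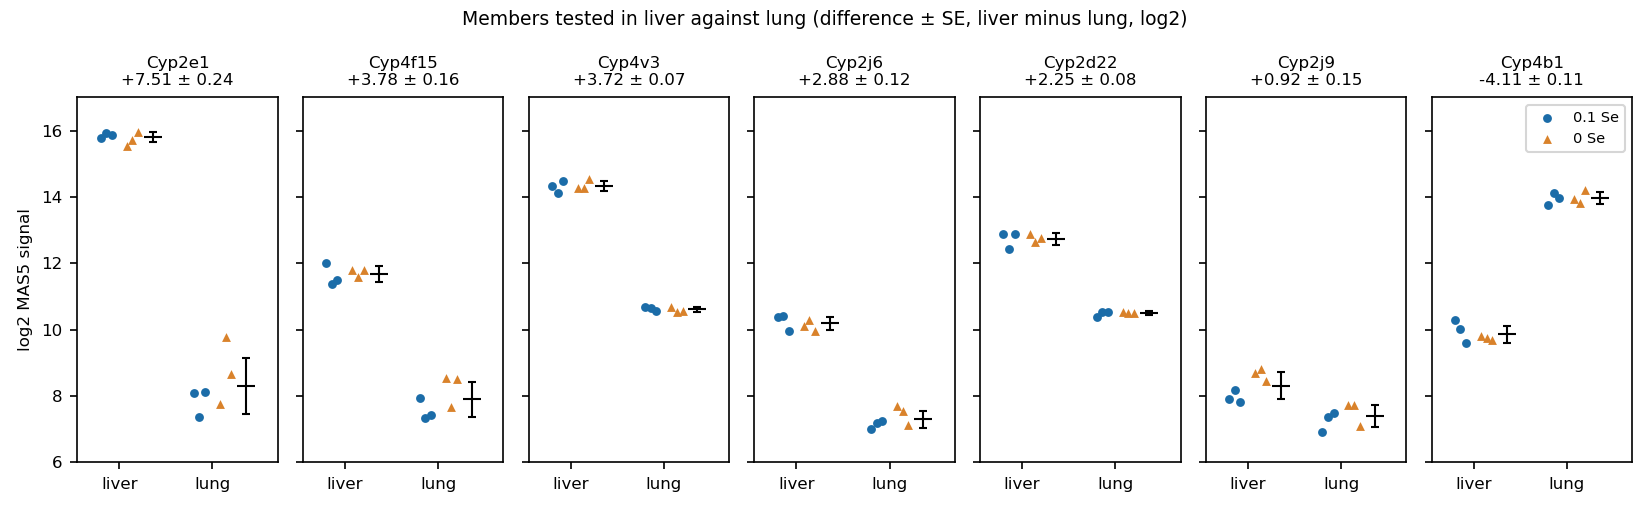
Log2 MAS5 signals (vertical axis) of the 7 P450 genes tested in both tissues, with the 6 liver arrays left of the 6 lung arrays in each panel. Blue circles are 0.1 Se arrays, orange triangles are 0 Se arrays, black bars show the mean and SD over the 6 arrays, and each title gives the liver minus lung difference with its SE. In 6 panels the liver arrays lie above the lung arrays, and in the panel of Cyp4b1 they lie below.

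The proteins that P450 enzymes work with were described by lists of known genes. Of 6 electron donors and heme-binding partners looked for, 5 had a single-gene probe set with values, so the list is incomplete. These 5 were Cyb5a, Cyb5b, Cyb5r3, Pgrmc1 and Pgrmc2, and P450 oxidoreductase (Por) was not among them. All 5 were higher in liver than in lung (36.2% of all genes tested), with a median difference of 1.34. The largest differences were 1.73 ± 0.06 (SE) for Pgrmc1, a heme-binding membrane protein, and 1.60 ± 0.06 for Cyb5b, a cytochrome b5. Of the genes of heme synthesis and breakdown, 11 of 12 tested were higher in liver (36.2% of all genes), with a median of 1.10. Blvrb, a biliverdin reductase, differed by 3.43 ± 0.09, Cpox by 2.65 ± 0.13 and Alad by 2.61 ± 0.08 (Cpox and Alad are enzymes of heme synthesis), and Alas1, the rate-limiting enzyme of heme synthesis in liver, by 1.06 ± 0.23. No gene of these lists was lower in liver past adjustment.

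Receptors and factors of P450 transcription were divided between the tissues. Of 18 such genes with values, 5 were listed in liver alone (3.69% of all genes). These were Nr1i2 (the receptor PXR), Nr1i3 (CAR), Hnf4a, Nr1h4 (FXR) and Nr0b2 (SHP). Of 11 tested, 4 were higher in liver, against 36.2% of all genes, and 4 were lower, against 47%. Among the higher ones were Rxra, the shared partner of the nuclear receptors (2.95 ± 0.07), and Cebpa (2.16 ± 0.09). The 4 lower ones were Ahr, the aryl hydrocarbon receptor (-0.83 ± 0.10), its partner Arnt (-1.30 ± 0.12), the coactivator Ncoa1 (-0.98 ± 0.08) and the stress-response factor Nfe2l2 (-0.68 ± 0.08).

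Enzymes that act after or beside P450s were mostly higher in liver. Of 24 conjugating enzymes with values, 10 were listed in liver alone (3.69% of all genes). Of 12 tested, 11 were higher in liver (36.2% of all genes) with a median of 2.57, led by the glutathione transferase Gstz1 (4.56 ± 0.09). Of 7 epoxide hydrolases, flavin monooxygenases and aldehyde oxidases tested, 5 were higher in liver (36.2% of all genes) and 2 lower (47%). Ephx2, soluble epoxide hydrolase, differed by 7.08 ± 0.13, whereas the flavin monooxygenase Fmo2 differed by -4.83 ± 0.22, that is 28.5-fold lower in liver. Of 6 genes of other P450 families tested, 3 were higher in liver (36.2% of all genes) and 1 lower (47%). Cyp7b1, an oxysterol hydroxylase, differed by 6.26 ± 0.13 and Cyp39a1, another one, by -0.60 ± 0.20. Fmo1 was the other gene of its list that was lower in liver, by -0.34 ± 0.12.

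No member passed the test for diet in liver. Of 37 members tested, 0 passed (limma, Benjamini-Hochberg, smallest adjusted p = 0.56), and over all 8980 genes tested 0.0111% passed. At an unadjusted p under 0.05, 1 member was higher in 0.1 Se liver (3.27% of all genes) and 1 was lower (3.23% of all genes). The median difference between diets was 0 over the members and 0 over all genes, and 35 of the 37 members differed by less than 0.5 in either direction. Of 34 members with 6 liver values, 1 had all 0.1 Se arrays above all 0 Se arrays (2.94%, against 5.27% of all genes) and 4 had all below (11.8%, against 6.43%). The methods' t-test gave 2 members at an unadjusted p under 0.05 (5.41%, against 5.9% of all genes).

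**Figure D2:**
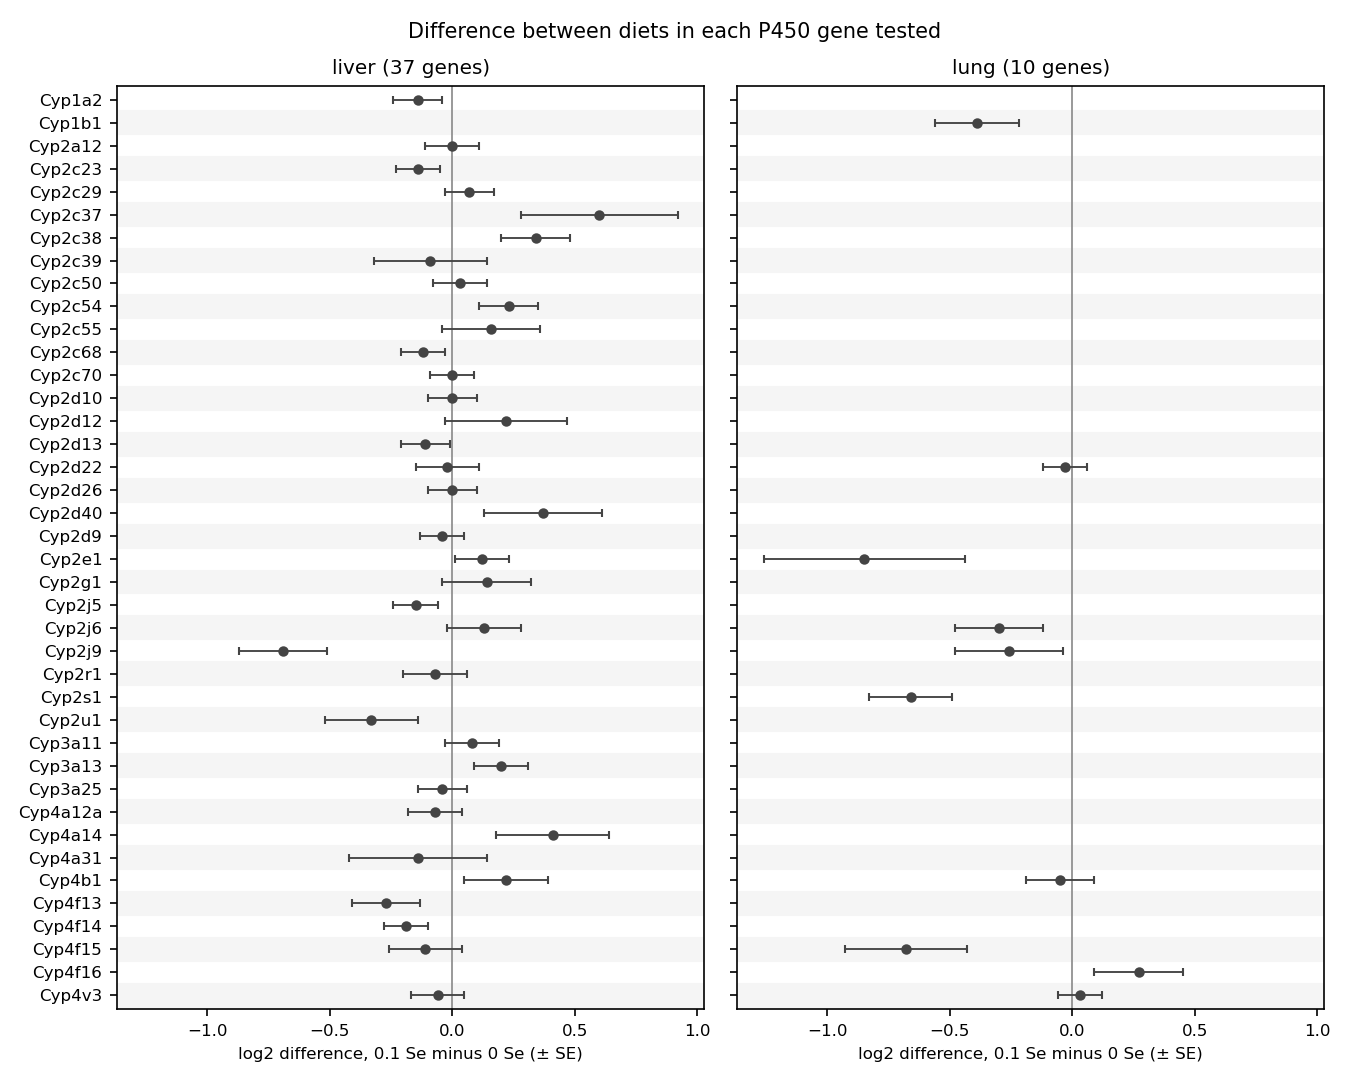
Differences between diets (horizontal axis, log2, 0.1 Se minus 0 Se, points with SE bars) for each P450 gene tested (vertical axis), with 37 genes in liver on the left and 10 genes in lung on the right. In liver 35 genes lie within 0.5 of 0, and Cyp2j9 lies lowest at -0.69. In lung 8 of 10 genes lie below 0, and none passed adjustment in either tissue.

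Cyp2j9, a Cyp2j enzyme known mostly from brain, had the smallest p in liver. Its log2 signals were 7.92, 8.18 and 7.81 in 0.1 Se liver, against 8.69, 8.83 and 8.44 in 0 Se liver, so the groups did not overlap. The difference was -0.69 ± 0.18 (SE), or 1.61-fold lower in 0.1 Se liver (unadjusted p = 0.00358, limma adjusted p = 0.56), and it lay between -0.80 and -0.60 under the alternatives. Cyp2j9 was looked at because the study had listed it from these arrays, so its direction is not independent evidence.

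The other members with the smallest p values had differences of less than 1 log2 unit in liver. Cyp2c38, an arachidonic acid epoxygenase, had 11.60, 11.60 and 11.16 in 0.1 Se liver, against 10.94, 11.09 and 11.31 in 0 Se liver, a difference of 0.34 ± 0.14 with overlapping groups. Cyp4f14 had 12.54, 12.40 and 12.52 in 0.1 Se liver, against 12.64, 12.63 and 12.78 in 0 Se liver, and these groups did not overlap (-0.19 ± 0.09). Cyp3a13 had 11.07, 10.92 and 10.87 in 0.1 Se liver, against 10.81, 10.61 and 10.84 in 0 Se liver, without overlap (0.20 ± 0.11). The differences were therefore small even where the diets separated. Cyp2c37 differed by 0.60 ± 0.32, but it lacked a value on 1 of the 0.1 Se arrays, and with that blank at the lowest listed value the difference was -0.08. Cyp4f13, Cyp2c54 and Cyp2u1 differed by -0.27 ± 0.14, 0.23 ± 0.12 and -0.33 ± 0.19, with overlap.

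The 5 members that follow were chosen after their values were seen. The difference in liver was 0.08 ± 0.11 (SE) for Cyp3a11, -0.14 ± 0.10 for Cyp1a2, 0.12 ± 0.11 for Cyp2e1, 0.07 ± 0.10 for Cyp2c29 and 0 ± 0.09 for Cyp2c70. Of these, Cyp3a11, Cyp2e1 and Cyp2c29 had signals near the highest value of the table, where saturation was not tested. Cyp4a14, which responds to PPAR alpha, differed by 0.41 ± 0.23. In the same livers, 10 of 10 macrophage markers had a difference above 0, while 49.6% of all genes lay below 0. The summed signal of these markers was at 14.67 to 14.99 (log2) in 0.1 Se liver, against 14.18 to 14.58 in 0 Se liver. None of the macrophage markers passed adjustment. The summed hepatocyte markers were at 18.73 to 18.81 in 0.1 Se liver, against 18.50 to 18.84 in 0 Se liver. The part of these cells in the P450 values was not tested.

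In lung, none of the 10 members tested passed adjustment for diet either. The smallest adjusted p was 0.317 (limma, Benjamini-Hochberg), the methods' t-test gave 0 members at an unadjusted p under 0.05 (6.81% of all genes), and over all 10895 genes 0.0918% passed. At an unadjusted p under 0.05, 3 of the 10 were lower in 0.1 Se lung (4.97% of all genes) and 0 were higher (3.55% of all genes). Of the 10, 8 were below 0, against 54.5% of all genes, and their median difference was -0.28, against -0.02 over all genes. That median was -0.46 without 0 Se lung 3, -0.18 without 0 Se lung 1 and -0.16 without 0.1 Se lung 1, and the members that no lung array lists have no part in it. All 0.1 Se arrays lay below all 0 Se arrays for 1 of 10 members (7.99% of all genes) and above for 0 (5.84% of all genes).

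Cyp2s1, an epithelial P450 found mainly outside the liver, had the smallest p in lung. Its log2 signals were 10.53, 9.90 and 10.33 in 0.1 Se lung, against 10.82, 10.69 and 11.23 in 0 Se lung, without overlap. The difference was -0.66 ± 0.17 (SE), or 1.58-fold lower in 0.1 Se lung (unadjusted p = 0.00297, limma adjusted p = 0.317), and the adjusted p lay between 0.108 and 0.755 under the alternatives. Cyp4f15 had 7.93, 7.35 and 7.42 in 0.1 Se lung, against 8.55, 7.67 and 8.51 in 0 Se lung, a difference of -0.68 ± 0.25. Here 0.1 Se lung 1 lay above 0 Se lung 2, so the groups overlapped. Cyp1b1, which hydroxylates estradiol outside the liver, had 7.69, 7.62 and 7.94 in 0.1 Se lung, against 8.25, 8.28 and 7.90 in 0 Se lung, with overlap (-0.39 ± 0.17).

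Cyp2e1 had the widest spread among lungs. Its log2 signals were 8.09, 7.38 and 8.13 in 0.1 Se lung, against 7.75, 9.77 and 8.65 in 0 Se lung, so that 0 Se lung 2 was high and 0 Se lung 1 lay below 2 of the 0.1 Se arrays. The difference was -0.85 ± 0.41 (SE, limma adjusted p = 0.688), and it lay between -1.34 and -0.33 under the alternatives. Cyp2j6, Cyp4f16 and Cyp2j9 differed by -0.30 ± 0.18, 0.27 ± 0.18 and -0.26 ± 0.22. A second probe set of Cyp2j6 gave the opposite sign, 0.19 ± 0.15. Cyp4b1, the member on the lung side, had 13.75, 14.11 and 13.98 in 0.1 Se lung, against 13.94, 13.82 and 14.22 in 0 Se lung (-0.05 ± 0.14). Cyp4v3 and Cyp2d22 also lay close to 0, at 0.03 ± 0.09 and -0.03 ± 0.09, and their second probe sets gave -0.04 ± 0.15 and 0.12 ± 0.14.

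**Figure D3:**
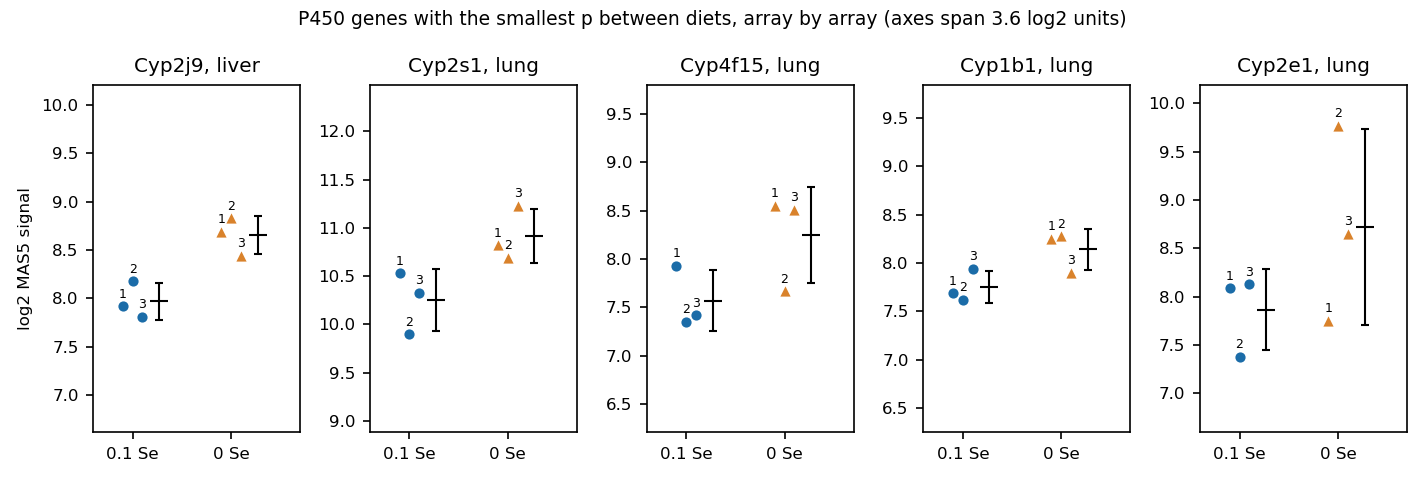
Log2 MAS5 signals (vertical axis) of Cyp2j9 in liver and of Cyp2s1, Cyp4f15, Cyp1b1 and Cyp2e1 in lung, with the 3 arrays of 0.1 Se (blue circles) left of the 3 arrays of 0 Se (orange triangles). Small digits give the replicate number, and black bars show the mean and SD. The diets do not overlap for Cyp2j9 and Cyp2s1, they overlap for the other 3 genes, and 0 Se lung 2 stands high for Cyp2e1 at 9.77.

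Markers of airway cells were measured on the same lung arrays. All 11 ciliated cell markers with values had a difference below 0 in lung (54.5% of all genes), with a median of -0.74. The summed signal of 10 of them was at 12.75 to 13.39 (log2) in 0.1 Se lung. In 0 Se lung it was at 13.44 to 13.68, without overlap. Of the club cell markers, 8 of 8 tested were below 0 (54.5% of all genes) with a median of -0.40. Their sum was at 16.72 to 17.24 in 0.1 Se lung, against 17.14 to 17.60 in 0 Se lung, with overlap. The club cell markers and their sum include Cyp2f2, a P450 left out of the members by name (-0.41 ± 0.15, SE). None of these markers passed adjustment. The array lowest in Cyp2s1, 0.1 Se lung 2, was also lowest in the ciliated sum (12.75), and 0 Se lung 3 was highest in both (11.23 and 13.68).

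Markers of other cells varied between the lungs as well. The summed cardiomyocyte markers, 8 of 8 below 0 (54.5% of all genes), were at 14.37, 12.46 and 12.85 in 0.1 Se lung, against 12.18, 15.19 and 14.49 in 0 Se lung. The arrays with the highest values of this sum, 0 Se lung 2 and 0 Se lung 3, were also those with the highest Cyp2e1 (9.77 and 8.65). Of 4 neutrophil markers tested, 3 were above 0 and 1 below, with their sum at 12.13 to 14.06 in 0.1 Se lung, against 10.43 to 11.72 in 0 Se lung. Of the hepatocyte markers, 8 of 11 were listed on no lung array. Alb, albumin, was listed on 0.1 Se lung 1 (6.70), 0.1 Se lung 3 (7.15) and 0 Se lung 2 (6.81). Hpx was listed on 0.1 Se lung 3 alone (6.70), and Pck1 on 0 Se lung 2 alone (7.38). The part of these cells in the P450 values was not tested.

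**Figure D4:**
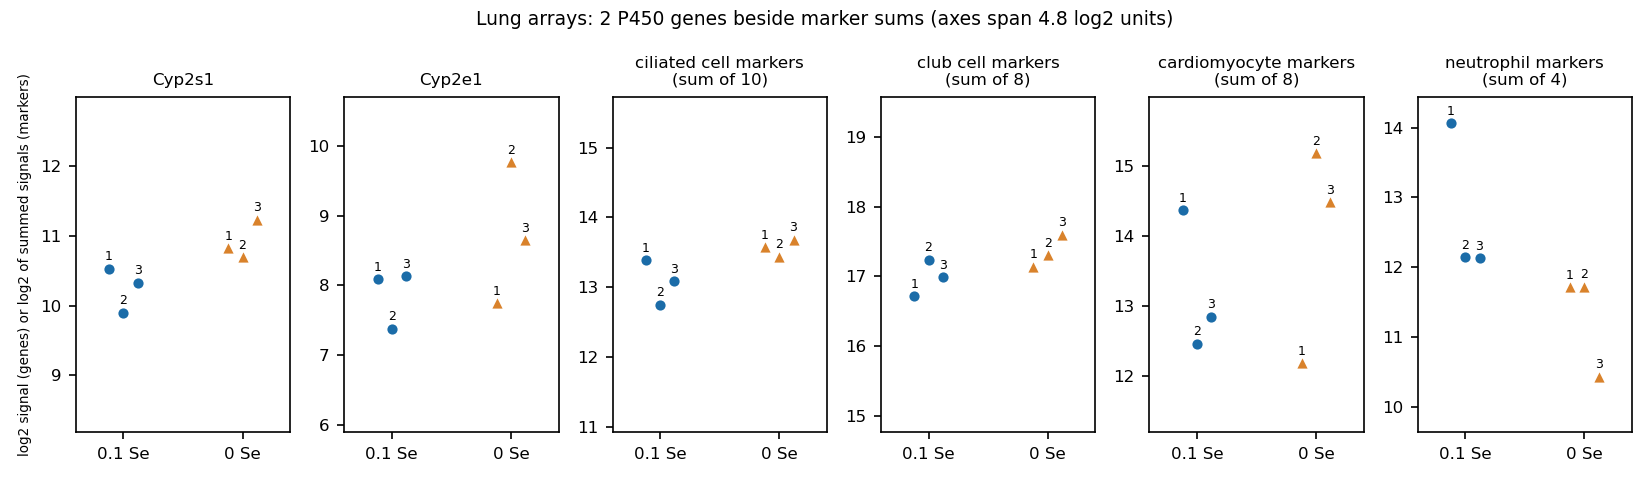
Lung arrays by diet, with 0.1 Se (blue circles) left of 0 Se (orange triangles) and replicate numbers beside the points. The first panels give log2 MAS5 signals of Cyp2s1 and Cyp2e1, and the others give the log2 of the summed signals of ciliated cell, club cell, cardiomyocyte and neutrophil markers. The ciliated sum is lower on every 0.1 Se array (12.75 to 13.39) than on any 0 Se array (13.44 to 13.68).

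The probe set shared by Cyp2a5 and Cyp2a4, which was not a member, showed a larger difference in lung. Cyp2a5 is the coumarin hydroxylase of mice and Cyp2a4 a steroid hydroxylase, and the probe set cannot tell them apart. Its log2 signals were 9.15, 7.16 and 8.37 in 0.1 Se lung, against 10.31, 10.89 and 10.39 in 0 Se lung, without overlap. The difference was -2.30 ± 0.39 (SE), or 4.93-fold lower in 0.1 Se lung (limma adjusted p = 0.0779). In liver it had 14.60, 13.19 and 13.97 in 0.1 Se liver, against 13.84, 14.34 and 14.35 in 0 Se liver, with overlap (-0.26 ± 0.28). The study had listed Cyp2a4 from these arrays, so this direction is not independent evidence either.

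Whether diet differences differed between the tissues was tested for the 7 members listed in both. None passed (limma, Benjamini-Hochberg, smallest adjusted p = 0.814), and 0% of all genes passed. The difference of differences, lung minus liver, was -0.97 ± 0.49 (SE) for Cyp2e1, -0.57 ± 0.32 for Cyp4f15, -0.43 ± 0.24 for Cyp2j6, 0.42 ± 0.29 for Cyp2j9, -0.27 ± 0.21 for Cyp4b1 and 0.09 ± 0.14 for Cyp4v3. None of these values reached 2 times its error, and at an unadjusted p under 0.05 the count was also 0 (6% of all genes). Second probe sets gave 0.29 ± 0.20 for Cyp2j6, with the sign turned, and 0.33 ± 0.19 for Cyp4v3.

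Of the partner lists, no gene passed adjustment for diet in either tissue. In liver, the smallest p values belonged to Gsta2, a glutathione S-transferase, and Cyp7b1, an oxysterol hydroxylase. Gsta2 was at 12.49, 12.44 and 12.28 in 0.1 Se liver, against 12.71, 12.91 and 12.82 in 0 Se liver, without overlap (-0.41 ± 0.10, SE, limma adjusted p = 0.464). Cyp7b1 was at 13.95, 13.72 and 13.56 in 0.1 Se liver, against 14.02, 14.13 and 14.13 in 0 Se liver, also without overlap (-0.35 ± 0.11, limma adjusted p = 0.607). Next came Ugt2b35, a glucuronosyltransferase (-0.31 ± 0.10), and Fmo5, a flavin monooxygenase (0.50 ± 0.17). In lung, ferrochelatase (Fech), the last enzyme of heme synthesis, differed by 0.46 ± 0.10 (unadjusted p = 0.00119, limma adjusted p = 0.222). Its log2 signals were 11.50, 11.60 and 11.68 in 0.1 Se lung, against 11.16, 10.95 and 11.31 in 0 Se lung, without overlap. The heme oxygenase Hmox2 was at 10.62, 10.59 and 10.79 in 0.1 Se lung, against 10.35, 10.33 and 10.38 in 0 Se lung, also without overlap (0.31 ± 0.09, limma adjusted p = 0.39). The aldehyde oxidase Aox3 was at 11.47, 11.06 and 11.44 in 0.1 Se lung, against 11.98, 11.69 and 11.75 in 0 Se lung, without overlap and with the opposite sign (-0.48 ± 0.12, limma adjusted p = 0.301).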

How the data were processed

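The 12 arrays held RNA of liver and lung from mice on 2 diets, with 3 arrays per group, labelled as biological replicates. The authors computed MAS5 signals on Affymetrix mouse genome arrays, scaled each array alone and left out absent calls. Their signals were deposited on the log2 scale for 29467 probe sets and reached 16.4 at most. R 2.15.2 and affy 1.36.0 stand in the submitters' processing notes. Values were used as deposited, and blanks stayed missing. Gene names came from the array annotation (24504 probe sets of a single gene), and 58 control probe sets were left out. The array carries no genome build, and the printed promoters are RefSeq's, of GRCm38.p6.

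A gene stood with its probe set of most listed values and then highest mean. Groups were compared with limma 3.58.1 in R 4.3.3 (lmFit, eBayes with a trend; data.table was version 1.17.8), with at least 2 values in each group compared, and p-values were adjusted by Benjamini-Hochberg over all probe sets tested (15112 for liver against lung, 16575 for diet in liver, 21655 for diet in lung), at a threshold of 0.05. Shares of all genes count each gene once. Differences are 0.1 Se minus 0 Se and liver minus lung, with the SE. The scripts were tested on simulated data. Figures were drawn with matplotlib 3.10.9 in Python 3.11.15.

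The members, gene lists and alternatives were chosen with earlier results of these data known. The genes named were the members that differed most between tissues, the first of each subfamily among those listed in liver alone, the 8 members of smallest p for diet in each tissue, the 6 of smallest p for the difference between tissues, Cyp2j9 and Cyp2a4, and the leading genes of each list. Other named genes (Cyp2c29, Cyp2c70, Cyp2e1, Cyp3a11, Cyp1a2 and Cyp4a14 for diet in liver, and Alas1) were chosen after their values were seen. Marker sums are log2 of the summed linear signals. Alternatives covered the filter, blanks, scaling, eBayes settings and the methods' t-test. They also covered the replicate number as a block, probe sets, leaving out each array, and a 2-fold rule for liver against lung. With 3 arrays per group an exact test cannot give a two-sided p under 0.1, and the number of arrays limits the precision.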

Additional observations from a re-analysis of the deposited data

How the results depend on the processing

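Of the 173 gene values of liver against lung under the alternatives, 173 kept their direction and their side of the threshold. The 2-fold rule, which Cyp2j9 did not meet (1.89-fold), is not among these values. Direction and side of the threshold also held for 153 of 154 values of diet in liver, 152 of 154 of diet in lung and 142 of 142 of the difference between tissues. The exceptions were Cyp2c37 in liver (-0.08 with blanks at the lowest listed value) and Cyp4v3 in lung (-0.04 without probe sets ending in _x_at or _s_at, and from 0 to 0.08 when each array was left out in turn, with the sign turned by a margin under rounding without 0 Se lung replicate 2). With blanks at the lowest listed value, 36 P450 genes were higher in liver and 4 in lung, against 6 and 1, because genes listed in 1 tissue alone entered the test, and the median diet difference in lung was 0, against -0.28, because genes blank in lung entered it too. The methods' t-test gave 2 P450 genes at an unadjusted p under 0.05 for diet in liver, and 0 after adjustment. Leaving out each array in turn gave medians for diet in lung from -0.464 to -0.163, and from -0.06 to 0.032 in liver. Same-numbered samples showed little correlation (from -0.19 to 0.15). The sample titles do not say whether liver and lung of 1 number came from the same mouse, and these correlations cannot decide it. With the number as a block, 6 P450 genes were higher in liver, 1 was lower, and 0 changed with diet in either tissue. Quantile normalization moved the median of all genes for liver against lung to -0.43, and median centring to 0.05, from -0.15. Of the members, 4 were listed on too few arrays to be placed in a tissue.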

Other observations

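Of the 4 probe sets shared by several P450 genes, 2 were listed in liver alone, 1 in lung alone, and that of Cyp2a5 and Cyp2a4 in both tissues. The one shared by Cyp4a31 and Cyp4a10, fatty acid omega-hydroxylases, was listed on all 6 liver arrays at 11.56 to 12.80 and on no lung array, and differed between diets by 0.31 ± 0.26 (SE). The one shared by Cyp3a41b and Cyp3a41a, known as female-predominant in mouse liver, was listed on all 6 liver arrays of these males at 8.55 to 9.39 and on no lung array (diet difference -0.23 ± 0.21). The one shared by Cyp4f37 and Cyp4f16 was listed on the 6 lung arrays alone, at 6.94 to 7.89, as was Cyp4f16 by its own probe set, and differed between diets by 0.25 ± 0.22.

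The probe sets of Cyp4v3 did not give the same value for diet in liver. The second one had 12.90, 12.64 and 12.69 in 0.1 Se liver, against 13.33, 12.91 and 13.08 in 0 Se liver, without overlap (-0.36 ± 0.12, SE, limma adjusted p = 0.635), while the one used in the report differed by -0.06 ± 0.11. The sign of the diet difference in liver also turned with the probe set for Cyp2j6 (-0.11 ± 0.14 by its second one), Cyp2d22 (0.04 ± 0.10) and Cyp2j5 (0.05 ± 0.11). The cause was not tested. Several liver P450s, such as Cyp2e1 and Cyp1a2, are known from hepatocytes around the central vein. Of 7 markers of these cells tested in liver, 6 were below 0 (49.6% of all genes), with a median of -0.06. Glul (-0.25 ± 0.10, SE) and Oat (-0.21 ± 0.10) differed most, and the differences of the others were smaller than their errors. The summed signal of 6 of the markers was at 14.62 to 14.91 (log2) in 0.1 Se liver. In 0 Se liver it was at 14.84 to 14.97, with overlap. Of 6 markers of periportal hepatocytes tested, among them Cyp2f2, 3 were above 0 and 3 below, with a median of -0.01. None passed adjustment.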
